A study of Mus musculus with 6 samples.

Results

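The genes described here are ligands and receptors of the interleukin-1 family. The set was given as a list of 10 genes, and its members were taken as every probe set whose only gene symbol in the platform annotation was on that list. Of the 10 genes, 9 had such a probe set, with 17 probe sets among 34945 that named 1 gene. Il1rl1, the receptor of interleukin-33, had no probe set named in the annotation used and was not analysed here. Of the 9 genes, 7 passed the filter on low values that left 12739 of 18193 genes for testing; where a gene had several probe sets, its value is that of the one with the highest mean. Il1a and Il1r1 did not pass that filter.

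Transcripts of bone marrow myeloid cells from the leg bones of Hdc-GFP mice (C57BL/6 background) were read on 3' arrays. In these mice green fluorescent protein reports Hdc, the gene of the histamine-making enzyme. All cells, in both groups, were sorted as GFP-positive or GFP-high and CD11b-positive, CD11b being an integrin of myeloid cells. They differed in the antigen Gr1, which was low in Gr1lo (3 arrays) and high in Gr1hi (3 arrays). The age of the mice, any pooling of animals and any treatment are not given in the labels. The labels also do not say whether the 3 samples of a group came from separate mice, so p-values measure the spread between these samples, which may be technical. Both groups carry the reporter, and no group without it was measured. Values are log2 probe set values that the authors made with GCRMA, and every difference is Gr1hi minus Gr1lo.

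Interleukin-1 family ligands are cytokines that start and amplify inflammation. Il1b and Il18 are made as inactive precursors that caspase-1 cuts inside inflammasomes, whereas interleukin-1 alpha, from Il1a, is active as a precursor. A signal needs a ligand, a receptor such as the product of Il1r1, and the shared accessory chain from Il1rap. The family carries its own brakes: the antagonist from Il1rn fills the receptor without signalling, and the decoy receptor from Il1r2 binds interleukin-1 but lacks the signalling domain. Neutrophils, which high Gr1 marks, are a known source of interleukin-1 beta and of the decoy receptor.

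Il1a and Il1b are next to each other among the protein-coding genes of mouse chromosome 2, yet they differed most among the ligands, so the sequences before their starts are shown together with that of Il1f9, whose difference was nearest to that of Il1b. Each is the 250 bases before the annotated start, read 5′ to 3′ on the gene's strand and taken from RefSeq on GRCm38.p6. The windows are chr2:129371140-129371389 on the minus strand for Il1b, chr2:129309973-129310222 on the minus strand for Il1a and chr2:24186226-24186475 on the plus strand for Il1f9. Capitals mark matches, on either strand, to 5 motifs. These are the TATA box, searched as TATAAA, the C/EBP motif, searched as TTNNGNAA, and the PU.1 motif, searched as GAGGAAG. The AP-1 motif was searched as TGANTCA. The NF-kB motif was searched as a run of 3 G, any 5 bases and a pair of C.
Il1b: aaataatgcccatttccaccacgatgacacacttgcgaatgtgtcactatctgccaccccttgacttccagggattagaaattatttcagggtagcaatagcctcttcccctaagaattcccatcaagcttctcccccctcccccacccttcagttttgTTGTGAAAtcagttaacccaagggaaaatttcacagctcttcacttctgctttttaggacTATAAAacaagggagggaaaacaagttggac
Il1a: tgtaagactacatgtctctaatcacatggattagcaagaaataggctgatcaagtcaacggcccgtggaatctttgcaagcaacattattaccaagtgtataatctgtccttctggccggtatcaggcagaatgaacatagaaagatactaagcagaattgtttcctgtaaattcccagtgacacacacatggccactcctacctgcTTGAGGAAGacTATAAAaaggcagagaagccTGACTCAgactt
Il1f9: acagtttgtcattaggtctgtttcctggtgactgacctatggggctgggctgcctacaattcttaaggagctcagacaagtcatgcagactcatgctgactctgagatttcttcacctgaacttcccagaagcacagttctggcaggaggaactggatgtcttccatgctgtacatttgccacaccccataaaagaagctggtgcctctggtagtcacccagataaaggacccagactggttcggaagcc
Il1b and Il1a both held TATAAA, beginning 31 and 32 bases before the start, and both held TTNNGNAA, beginning 91 and 43 bases before it. In Il1a that match runs into a GAGGAAG, beginning 41 bases before the start, and a TGANTCA match begins 12 bases before it. The Il1f9 window held none of the 5. Over all 32851 windows of this length in the table, 12.4% held TATAAA, 36.8% TTNNGNAA, 10.6% GAGGAAG, 6.75% TGANTCA and 45.8% the NF-kB letters. A match is a string of letters in these windows and not a measured binding site. The table held 14 windows for all 10 genes, of which 3 held TATAAA, 9 TTNNGNAA, 2 GAGGAAG, 2 TGANTCA and 4 the NF-kB letters. The Il1rn windows chr2:24345041-24345290 and chr2:24345121-24345370 overlap and both hold the same TTGGGGAA, so the 14 are not all separate sequences.

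The arrays were checked against their labels first. Of 13 neutrophil marker genes listed, 11 were measured, and all 11 lay above the controls of absent transcripts in both groups. Of the 11, 5 were called higher in Gr1hi, by 1.38 (Padi4) to 2.99 (Cxcr2), and 6 were not called. Those 6 read 13.99 to 15.01 over both groups, and 15.01 was the highest value of the series. A further rise in them could thus hardly be seen. Hdc and Itgam, the genes of the reporter and of CD11b used in the sort, were themselves higher in Gr1hi, by 1.47 and 0.89 (limma adjusted p = 1.84e-05 and 7.53e-05). The part of these differences in those of the interleukin-1 genes was not tested. The absent-transcript controls were 3 probe sets that read 2.21 to 2.77, and a value in that range or below is called background here. Gr1 itself had no check, since Ly6g, Ly6c1 and Ly6c2, the genes of that antigen, each lack a probe set of their own. The labels call every sample female, but the Y-linked Eif2s3y read 9.02 to 10.66 on all 6 arrays. Xist, an RNA made from an inactive X chromosome, stood at 10.95 on Gr1lo replicate 3 and 10.14 on Gr1hi replicate 3, and 2.43 or less on the other 4 arrays. The description of Gr1lo replicate 3 also writes its reporter in a way that can be read as GFP-negative. The replicate 3 arrays thus stand apart, and the main results are given without them as well.

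In Gr1hi cells the transcripts of interleukin-1 beta, of Il1f9, which encodes the ligand also called interleukin-36 gamma, and of the antagonist were far higher than in Gr1lo cells. All 7 tested members were higher in Gr1hi at an adjusted p under 0.05 (limma, Benjamini-Hochberg over all tested genes), and in all 7 every Gr1hi array lay above every Gr1lo array. Over all tested genes 24.6% were called higher in Gr1hi, 56.4% were called in either direction, 30.7% had groups apart with Gr1hi above, and 65.5% had groups apart in either direction. At the level of probe sets, 12 of 17 passed the filter and all 12 were called higher, against 26.2% of all probe sets kept. The median difference of the 7 was 2.82, that of Il18, against 0.03 over all tested genes. Il1b, Il1f9 and Il1rn were more than 8-fold higher, as were 1.90% of all tested genes. With the replicate 3 arrays left out all 7 were still called, with differences from 1.39 in Il18rap to 7.17 in Il1b and adjusted p from 3.10e-05 to 0.00233 (limma). All 7 lay above the filter value on all 6 arrays, so none passed through 1 group alone. An exact permutation test of a single gene over 3 and 3 arrays cannot give a p below 0.1, and it gave that value for each of the 7. In sorted bulk samples, more transcript per cell and more cells of an expressing type cannot be told apart.

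**Figure D1:**
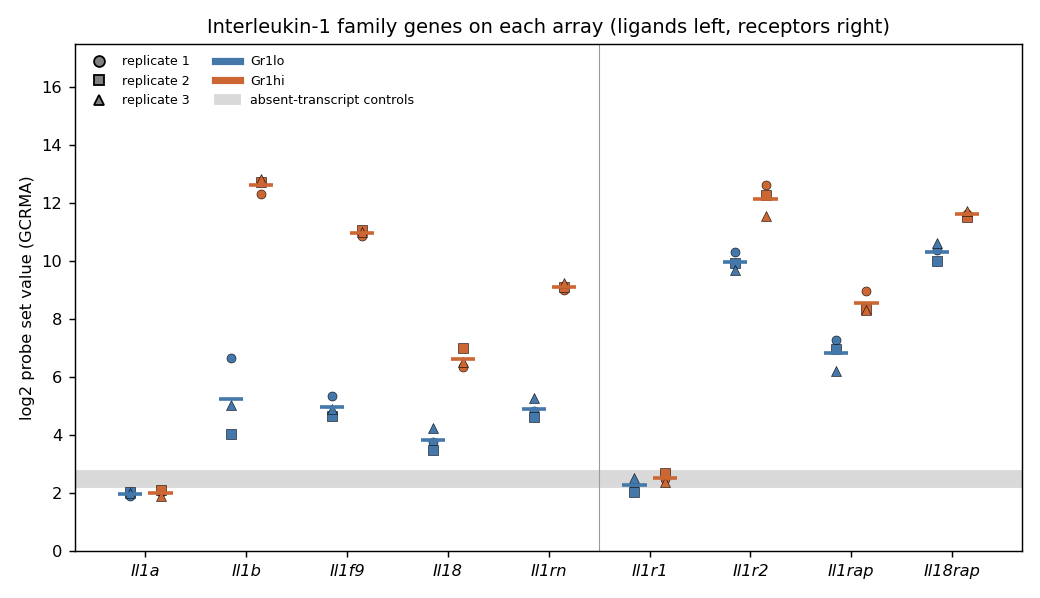
Each point is 1 array (blue Gr1lo, orange Gr1hi, symbols for replicate numbers), bars are group means and the vertical axis is the log2 probe set value; the grey band is the range of the absent-transcript controls, 2.21 to 2.77. Il1a and Il1r1 lie at or below the band in both groups, and in the other 7 genes every Gr1hi point is above every Gr1lo point.

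Among the ligands, Il1b (probe set 1449399_a_at) had 6.66, 4.03 and 5.03 on the Gr1lo arrays, given here and later in the order of their replicate numbers, against 12.32, 12.72 and 12.82 on the Gr1hi arrays. The Gr1lo arrays were widely spread, with replicate 1 the highest, while the Gr1hi arrays lay close together near the top. The difference was 7.38 (SE 0.53, 95% interval 6.18 to 8.57, limma adjusted p = 2.99e-06), and no other tested gene had as large a rise. On the linear scale the Gr1lo arrays held 1.59%, 0.257% and 0.515% of the Gr1hi mean. Without Gr1lo replicate 1 the difference was 8.09, and over all arrays left out singly it ran from 6.77 to 8.09.

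Il1f9 (1425958_at) read 5.36, 4.65 and 4.91 in Gr1lo and 10.87, 11.08 and 10.99 in Gr1hi. Both groups were tight, and Gr1lo replicate 1 was again the highest of its group. The difference was 6.01 (SE 0.19, 95% interval 5.57 to 6.44, adjusted p = 1.09e-07, limma), a 64.3-fold change. As large a rise was found in 18 of the 12739 tested genes, itself included.

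Il18, whose product drives interferon-gamma production in lymphocytes, read 3.76, 3.47 and 4.24 in Gr1lo and 6.36, 7.02 and 6.54 in Gr1hi (1417932_at). The groups were well apart, by 2.82 (SE 0.26, limma adjusted p = 1.35e-05), with all Gr1lo arrays above the highest control. Il1a (1421473_at) read 1.88, 2.04 and 1.99 in Gr1lo and 2.05, 2.10 and 1.89 in Gr1hi. All 6 arrays were at background and the groups overlapped. Tested without the filter, Il1a differed by 0.04 (95% interval -0.14 to 0.23, limma adjusted p = 0.734), an interval that is only a statement about background signal.

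Il1rn, the antagonist, was measured by 3 probe sets that rose alike. The one with the highest mean, 1451798_at, read 4.83, 4.63 and 5.27 in Gr1lo and 9.001, 9.11 and 9.26 in Gr1hi, a difference of 4.21 (SE 0.20, limma adjusted p = 3.19e-07). The 2 others differed by 3.99 (1423017_a_at) and 4.33 (1425663_at). In 1425663_at, Gr1lo replicate 2 at 2.56 lay within background, so the size of that difference depends on it. The RefSeq table lists 3 promoter windows for Il1rn, whose transcripts encode secreted and intracellular forms of the antagonist. The files do not say which of these forms each probe set detects.

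Among the receptors, Il1r2, the decoy, read 10.32, 9.94 and 9.70 in Gr1lo and 12.62, 12.27 and 11.57 in Gr1hi (1419532_at). It was well above background on every array of both groups, and within each group replicate 3 was the lowest. The difference was 2.17 (SE 0.25, 95% interval 1.61 to 2.73, limma adjusted p = 5.53e-05), a 4.49-fold change, and 2.31 without the replicate 3 arrays.

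Il1r1, the signalling receptor, read 2.28, 2.03 and 2.50 in Gr1lo and 2.47, 2.70 and 2.36 in Gr1hi (1448950_at). Its other probe set, 1459777_at, read 1.96 to 2.09 and 1.98 to 2.12. Both probe sets were at background on all 6 arrays, and the groups overlapped. Without the filter, the first differed by 0.24 (95% interval -0.06 to 0.54, limma adjusted p = 0.198).

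Il1rap, the accessory chain shared by several receptors of the family, had 5 probe sets that differed widely in signal. The brightest, 1421844_at, read 7.28, 6.95 and 6.22 in Gr1lo and 8.96, 8.37 and 8.33 in Gr1hi, with replicate 3 again the lowest of each group. It differed by 1.74 (SE 0.28, limma adjusted p = 5.40e-04). The probe set 1449585_at read 4.93, 4.94 and 4.91 in Gr1lo and 6.24, 6.47 and 6.39 in Gr1hi, a difference of 1.44. The 3 dim probe sets differed by 0.29 to 0.63, and 2 of them, 1439697_at and 1442614_at, were at background on all 6 arrays. The mean of all 5 probe sets differed by 0.92 (limma adjusted p = 1.85e-04). The size of the Il1rap difference thus rests on the choice of probe set, and the 3 probe sets above background were each higher in Gr1hi. Membrane-bound and soluble forms of the accessory chain are known, and the files do not say which form each probe set detects.

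Il18rap, the accessory chain of the interleukin-18 receptor, read 10.37, 9.997 and 10.62 in Gr1lo and 11.62, 11.54 and 11.73 in Gr1hi (1456545_at). It was far above background in both groups, with Gr1lo at 32.2% to 49.6% of the Gr1hi mean on the linear scale. The difference was 1.30 (SE 0.15, limma adjusted p = 5.46e-05), and its other probe set, 1421291_at, differed by 2.15.

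**Figure D2:**
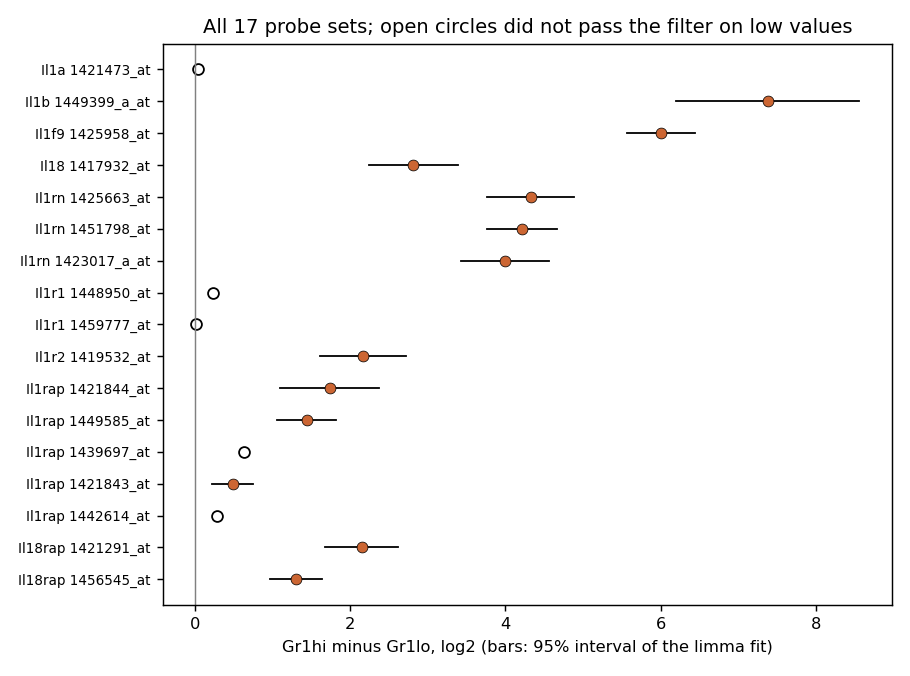
The horizontal axis is the log2 difference Gr1hi minus Gr1lo for each of the 17 probe sets, with bars for the 95% interval of the limma fit over all kept probe sets; open circles did not pass the filter on low values and have no interval. The 3 Il1rn probe sets lie together at 3.99 to 4.33, whereas the 5 Il1rap probe sets spread from 0.29 to 1.74.

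How far the changes of related members differed was compared within arrays for 5 pairs chosen by role. The Il1b change exceeded that of its antagonist Il1rn by 3.16 (SE 0.76, 95% interval 1.05 to 5.28). It exceeded that of Il18, which caspase-1 also matures, by 4.56 (95% interval 2.44 to 6.68), and that of its neighbour Il1a by 7.34 (5.02 to 9.65). Il1a was at background throughout, so the value against Il1a mostly restates the Il1b difference. The decoy Il1r2 changed more than the signalling receptor Il1r1, by 1.93 (95% interval 0.87 to 2.99), with Il1r1 at background throughout. Each of these 4 gave p = 0.1 by exact two-sided permutation of the arrays, the smallest possible, and an adjusted p of 0.125 over the 5 pairs, so none passed a threshold of 0.05. Il1rap and Il1r2 changed by amounts that differed by -0.43 (95% interval -1.12 to 0.26, exact permutation p = 0.2, adjusted p = 0.2). Without the replicate 3 arrays, with 2 degrees of freedom left, the intervals of Il1b against Il1rn (2.85, 95% interval -2.42 to 8.11) and against Il18 (4.10, -0.97 to 9.16) included 0. That of Il1rap against Il1r2 then excluded it (-0.76, 95% interval -1.32 to -0.21), as it did with the mean of probe sets (-1.25, 95% interval -2.10 to -0.40).

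Family members lie next to each other in 3 places on the RefSeq map of GRCm38.p6, and neighbours often differed. On chromosome 1 the coding genes run Il1r2, Il1r1, Il1rl2, Il1rl1, Il18r1 and Il18rap. Along this row Il1r2 was higher in Gr1hi, Il1r1 was at background, Il1rl2 was lower, and Il18r1 and Il18rap were higher. Il1rl2, the receptor that Il1f9 uses, read 4.15, 4.55 and 4.03 in Gr1lo and 2.77, 2.45 and 2.58 in Gr1hi. It fell by 1.64 (SE 0.16, limma adjusted p = 2.29e-05) to the background level, so the size of its fall depends on background, and it stayed lower under the centrings tried (-0.97 and -1.90). Its ligand gene Il1f9 rose by 6.01 between the same groups.

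On chromosome 2 the row was cut to begin at Il1f9 and to end at Il1rn. Within it, Il1f9 and Il1rn showed large rises. The genes between them, Il1f6, Il1f5 and Il1f10, read 2.31 to 2.75 over both groups, all at background. Il1f8, the coding gene just before Il1f9, read 1.91 to 2.04 over both groups, also at background. Il1a and Il1b form the remaining pair, one at background and the other with the largest rise.

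**Figure D3:**
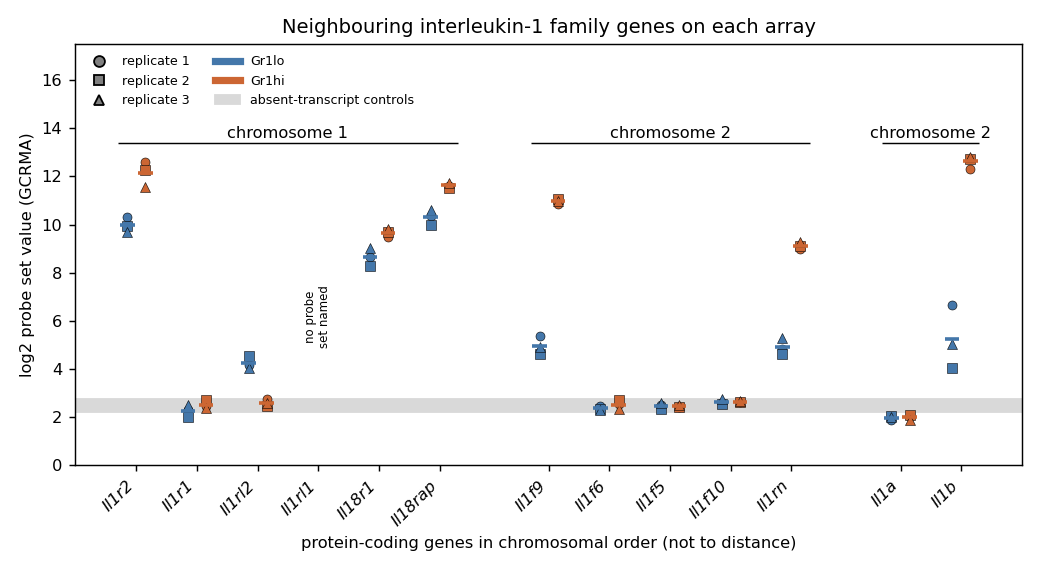
Coding genes are placed in their order on chromosomes 1 and 2, not to distance, with each array's log2 value as a point (blue Gr1lo, orange Gr1hi), group means as bars and the absent-transcript range in grey. Il1f9 and Il1rn stand high in Gr1hi at 10.98 and 9.13 on average while the 3 genes between them stay in the grey band. Il1f8, the coding gene before Il1f9, is not drawn.

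The other genes of the pathway were taken from 5 lists. Of the ligands and binding proteins outside the members 6 had a probe set among 9 listed names, some of them synonyms; 5 were at background in both groups, including Il33, and 1 of 2 tested genes rose. This was Il18bp, whose product captures interleukin-18. It read 4.57, 4.27 and 4.81 in Gr1lo and 7.14, 6.76 and 7.18 in Gr1hi, a difference of 2.48 (SE 0.22, limma adjusted p = 9.46e-06), next to the 2.82 of Il18 itself.

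Of 5 receptors outside the members 3 were tested, of which 1 rose and 2 fell, with a median difference of -0.54. Il18r1, the ligand-binding chain of the interleukin-18 receptor, rose by 1.01 (SE 0.19, limma adjusted p = 0.00156), with 8.64, 8.26 and 9.04 in Gr1lo and 9.47, 9.68 and 9.81 in Gr1hi. Besides Il1rl2, Sigirr, an inhibitory receptor of the family, fell by 0.54 (limma adjusted p = 0.0116), but differed by 0.13 after median centring, where the call was lost. Both chains of the interleukin-18 receptor, its ligand and the ligand's soluble inhibitor were thus called higher in Gr1hi.

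Interferon-gamma-producing lymphocytes are a known site of the interleukin-18 receptor, so their markers were read beside it. Of 12 NK and T cell markers 11 were measured, and 8 of them, Cd3e, Cd3g, Cd2, Ncr1, Klrd1, Gzma, Il2rb and Cd28, had group means at background in both groups, although Klrd1 read 2.83 on 1 Gr1hi array. The other 3 were tested and all 3 were called higher in Gr1hi. Cd3d read 4.32 ± 0.69 in Gr1lo and 8.49 ± 0.15 in Gr1hi (SD, n = 3), while Prf1 and Eomes rose from background by 0.52 and 0.31 (limma adjusted p = 0.00521 and 0.0220). With Gr1lo at background, a fall of Prf1 or Eomes could hardly be seen. Both calls were lost after centring on the hybridization controls, and that of Eomes also without the replicate 3 arrays. The part of NK and T cells in the interleukin-18 receptor differences was not tested. The summed linear level of the list was 64.9 to 83.0 in Gr1lo and 396 to 467 in Gr1hi. Cd3d alone made up most of the Gr1hi sum, so the higher sum does not stand for the list as a whole. Monocytes also make interleukin-1 beta. All 9 measured monocyte markers lay above background in both groups, with a summed linear level of 1059 to 2262 in Gr1lo and 3867 to 5070 in Gr1hi, of which Csf1r was the largest part in Gr1hi at 11.78 ± 0.08 on the log2 scale. Of the 9, Csf1r and Fn1 rose, F13a1 fell and 6 were not called, with a median difference of -0.05. The higher sum in Gr1hi thus rests on Csf1r, which read 7.77 ± 1.07 in Gr1lo, and not on the list as a whole. The mean log2 level of this list was 6.66 and 7.14 on the replicate 3 arrays and 5.33 to 5.85 on the others. On the replicate 3 arrays Il1b was neither the highest nor the lowest in Gr1lo and was the highest in Gr1hi, at 5.03 and 12.82. The part of monocytes in the Il1b difference was not tested. Markers of other cells were also read, where 24.6% of all tested genes were higher and 31.8% lower. Of 6 tested basophil and mast cell genes 0 rose and 2 fell. Of 5 tested macrophage genes 1 rose and 1 fell, and of 3 tested dendritic cell genes 1 rose and 0 fell. The part of these cells in the interleukin-1 family differences was not tested.

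Of 20 tested signalling genes downstream of the receptor 13 rose and 1 fell, with a median difference of 0.54, where 24.6% of all tested genes were higher and 31.8% lower. The counts rest on the scaling. Centring each array on its kept-gene median gave 19 higher and 0 lower, with 65.6% of all tested genes higher and 18.2% lower. Centring on the hybridization controls gave 5 higher and 1 lower, with 14.6% of all tested genes higher and 38.1% lower. Among the 5 with the smallest p, Map3k3, Irak2 and Myd88, the adaptor that joins the receptor to its kinases, rose by 1.77, 1.85 and 1.38. Myd88 read 9.79, 9.69 and 9.87 in Gr1lo and 11.06, 11.12 and 11.32 in Gr1hi (limma adjusted p = 4.55e-06). Rela, a subunit of NF-kB, and Tab2, an adaptor of the kinase TAK1, rose by 0.88 and 0.51, and Tab2 was no longer called after centring on the hybridization controls. Irak1, a kinase recruited through Myd88, fell by 0.87 (limma adjusted p = 6.16e-04), a call lost after median centring.

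Of 20 tested genes that mature or release interleukin-1 beta and interleukin-18, 11 rose and 6 fell, with a median difference of 0.63. Of all tested genes 24.6% were higher. The 6 lower genes make a share near the 31.8% of all tested genes that were lower. After median centring 14 were higher and 3 lower, near the shares of all tested genes, of which 65.6% were higher and 18.2% lower. After centring on the hybridization controls 9 were higher and 6 lower, where 14.6% of all tested genes were higher and 38.1% lower. Elane, Ctsg and Prtn3, neutrophil serine proteases that can cut cytokines of the family outside the cell, fell by 6.99, 4.39 and 4.46. Elane went from 11.43, 12.02 and 11.38 in Gr1lo to 5.26, 4.54 and 4.05 in Gr1hi. Ninj1, which ruptures the membrane of dying cells, rose from 7.31, 6.67 and 7.41 to 11.30, 10.55 and 11.12, by 3.86 (SE 0.24, limma adjusted p = 1.34e-06), and Txnip rose by 2.23.

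Some inflammasome genes of this list are named outside the rule, after their values were seen. Nlrp3, a sensor, rose from 3.12, 2.48 and 3.09 to 6.73, 5.97 and 5.99, by 3.34 (limma adjusted p = 5.70e-06), with 1 Gr1lo array at background. Casp1, the enzyme that cuts both precursors, rose by 1.27 and Casp4 by 1.02 (limma adjusted p = 3.52e-05 and 3.28e-04). Gsdmd, which forms the pore through which the mature cytokines leave, rose by 0.84. Mefv, another sensor, and Nek7, which binds Nlrp3, were not called, with differences of 0.03 and 0.25. Pycard, the adaptor that joins sensor and caspase, fell by 0.65, but differed by 0.02 after median centring, and the call was also lost with the mean of its probe sets. Casp8 and the channel gene Panx1 fell by 1.04 and 0.88, and both lost that call with the same centring.

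Of 20 genes known to be induced through the interleukin-1 receptor 12 rose and 1 fell when all genes were tested without the filter, where 18.4% of all genes were higher. Cxcl1, Il6 and Csf3 did not pass the filter and were at background. Of the 17 that passed it, Cxcl2, Ptgs2 and Ccl3 did so through the Gr1hi arrays alone and could only be counted as rises. Of the other 14, 12 lay above the filter value on all 6 arrays. In these 14, 9 rose and 1 fell, where 24.6% of all tested genes were higher. Without Gr1hi replicate 2, 13 passed the filter, of which 8 rose and 1 fell. Il1r1 was at background on all 6 arrays, and many of these genes also respond to other receptors. The part of the interleukin-1 receptor in their differences was not tested. Cxcl2, a neutrophil chemoattractant, read 2.41, 2.23 and 2.21 in Gr1lo and 6.57, 6.16 and 7.53 in Gr1hi, a difference of 4.47 whose size depends on background in Gr1lo. Ptgs2, the inducible enzyme of prostaglandin synthesis, rose by 3.86 from the same background. Ier3 and Nfkbiz, a nuclear regulator of NF-kB, rose by 2.70 and 1.995. Ccl4, among the 9 rises, went up by 1.20, also from background on all 3 Gr1lo arrays, so a fall could hardly be seen. Sod2 fell by 0.67, but differed by 0.01 after median centring.

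**Figure D4:**
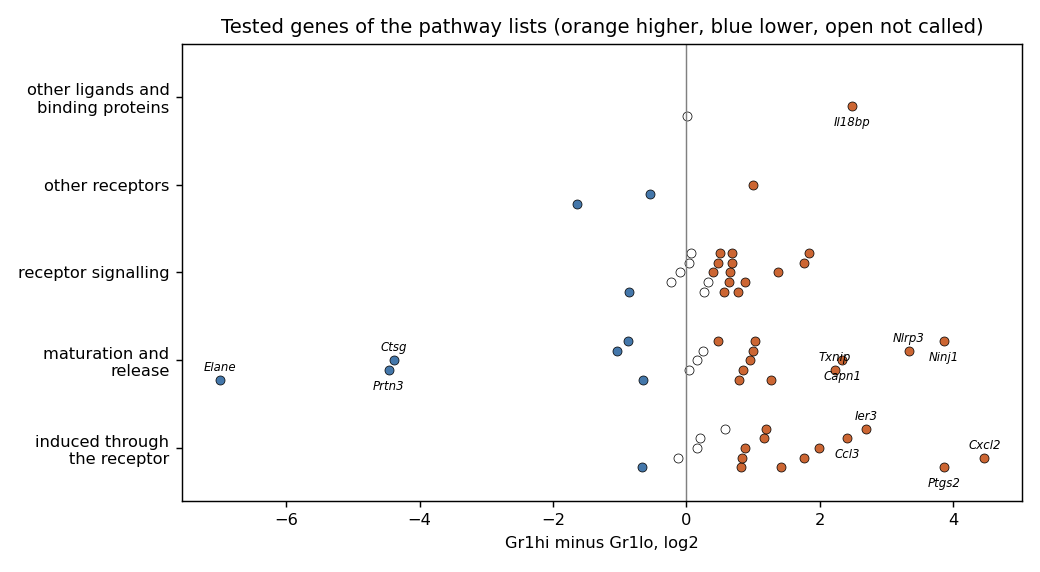
Each point is a tested gene of 1 of the 5 pathway lists, placed by its log2 difference Gr1hi minus Gr1lo on the deposited scale (orange called higher, blue called lower, open not called; the vertical scatter only separates points). The serine proteases Elane, Prtn3 and Ctsg lie at -6.99 to -4.39, against 3.86 for Ninj1 and 4.47 for Cxcl2.

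The tested genes whose 6-array profile lay nearest to a member's were found by the root mean square distance between log2 values after subtracting each gene's mean. Nearest to Il1b were Sirpb1a, Hcar2 and Slc15a3, at 0.32, 0.47 and 0.54. They shared its order of the Gr1lo arrays: Sirpb1a read 6.13, 3.08 and 4.46 there, and Slc15a3 read 5.51, 3.75 and 4.70. Il1rn lay nearest to Trpv2, a cation channel gene, at 0.075, then to Cd68 and Plekhm3 at 0.17 and 0.18. Nearest to Il18 were Btg2, Cln3 and Ttc39b (0.14, 0.15 and 0.16), and to Il1r2 Rdh12, Bmf and Rab11fip1 (0.15, 0.16 and 0.19). Il1rap was nearest to Nuak2, Usp3 and Itprid2 (0.15, 0.21 and 0.21). The 6 arrays fall in 2 groups, so a like difference between the groups weighs heavily in this measure, which is given as a description.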

How the data were processed

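RNA of 6 sorted samples (100 ng each) was labelled with biotin for 3' arrays, 1 array per sample, per the labels' protocols. The deposited log2 values were made by the authors with GCRMA, per the submitters' processing notes; its version and settings: not given in the sources used here. GCRMA subtracts a sequence-based background and equalizes arrays, so low values are compressed towards a floor and a shift shared by all genes is removed. The array number limits precision.

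Genes were named from a table of the platform annotation: 34945 probe sets had 1 symbol, 932 several and 9160 none, with 64 controls set aside. The filter kept genes above the 40th percentile of the array on 3 or more of the 6 arrays. Groups were compared with limma 3.58.1 (R 4.3.3; lmFit and trended eBayes), two-sided, adjusted by Benjamini-Hochberg at 0.05, and the script was tested on simulated data. Figures used Python 3.11.15 and matplotlib 3.10.9. Members and lists were chosen with earlier results of these data known. Named beyond the members were the 5 list genes with the smallest p, called genes against their list's main direction, and the 3 nearest profiles. Alternatives covered filter, probe sets, variance model, scaling, array weights, replicate block, threshold and arrays left out. A pseudocount did not apply.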

Additional observations from a re-analysis of the deposited data

How the results depend on the processing

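The 7 tested members were called higher in Gr1hi under all 20 alternatives run, with the lowest difference 0.92 (Il1rap, mean of probe sets) and the highest 8.09 (Il1b, without Gr1lo replicate 1). Their adjusted p (limma) stayed at or below 0.00596, and 7 were called with each array left out in turn. The scaling moved the background: 43.6% of calls were towards Gr1hi as deposited, 78.3% after centring each array on its kept-gene median and 27.7% after centring on the hybridization controls, and the median of all genes moved from 0.03 to 0.70 and -0.23. The members' differences were 1.04 to 7.12 on the last scale and 1.97 to 8.05 on the other.

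The count over all tested genes was 7179, against 12755 of 22715 when each probe set was tested on its own and 3774 in a test against a 1.5-fold change; it ran from 6446 to 6792 with single arrays left out. Of 62 tested pathway genes 48 were called, where 56.4% of all 12739 tested genes were called. Against a 1.5-fold change 26 of the 62 were called, beside 3774 of the 12739. With single arrays left out 41 to 47 pathway genes were called. The Il1rap change minus that of Il1r2 was -0.43, and it moved to -1.25 with the mean of probe sets and to -0.76 without the replicate 3 arrays, where the 95% interval excluded 0 in both. Single arrays left out moved it from -0.61 to -0.28, and moved the other pairs from 2.70 to 3.91 (Il1b and Il1rn), 6.70 to 8.09 (Il1b and Il1a), 4.13 to 5.30 (Il1b and Il18) and 1.67 to 2.15 (Il1r2 and Il1r1).

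Deviations from the group means of same-numbered arrays correlated at 0.166, 0.00429 and 0.145, against -0.188 to 0.0436 for unlike-numbered arrays. The main test did not take the replicate numbers as pairs, and whether same-numbered samples share a source was not tested. With the replicate block 7059 genes, 47 pathway genes and all 7 members were called, and the SE of Il1r2 was 0.11 against 0.25 without it.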
